A study of Mus musculus with 6 samples.

Results

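The cells described here were aortic T cells of mice that carried transcripts of Cxcr6, a chemokine receptor, or of Cd163l1, a scavenger receptor also known as SCART1. A cell counted as a T cell when its raw unique molecular identifier (UMI) counts of Cd3e, Cd3d and Cd3g, the invariant chains of the T cell receptor complex, summed to at least 2 and when it had no UMI of the B cell gene Cd79a or the macrophage gene Csf1r. At least 1 UMI of Cxcr6 or Cd163l1 then made it a member, so the cells were chosen by the measured counts of these 7 genes, whose levels are given as a description only. The rule found 762 such cells among 1939 T cells (39.3%) and among 59413 cells kept in all (1.28%), and the 1177 remaining T cells, with no UMI of either gene, are called other T cells. Of the 762 cells, 368 had Cd163l1 (328 of them together with Cxcr6 and 40 without it) and are called Cd163l1 T cells, and 394 had Cxcr6 alone and are called Cxcr6-only T cells.

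The samples were aortas of C57B/6J mice aged 18 weeks, 3 from mice on a high-fat diet and 3 from control mice, which the design text gives as fed a normal diet. No genetic change is named in the labels for either group. The tissue was digested with collagenase and DNase and single cells were profiled by droplet 3′ RNA sequencing. The labels do not say whether a sample was 1 aorta or a pool, so the p-values below measure the spread between these samples, which may be partly technical.

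CXCR6 is the receptor for the membrane-bound chemokine CXCL16, which macrophages and stromal cells make, and it is carried by memory and tissue-resident T cells and by innate-like lymphocytes. In mice, Cd163l1 marks T cells with gamma delta receptors that are committed in the thymus to make interleukin 17, a fate that depends on the transcription factors c-MAF and SOX13 and on the kinase BLK, and such cells live in barrier tissues and fat and need interleukin 7. Recirculating T cells instead carry the transcription factor KLF2 and its target S1PR1, with which they leave tissue.

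Both genes of the rule lie in single loci of the mm10 build: Cxcr6 on chromosome 9 from 123806475 to 123811760 and Cd163l1 on chromosome 7 from 140218267 to 140231145, both on the plus strand. Il23r, which stood among the genes most raised in these cells, lies on chromosome 6 from 67422932 to 67491855 on the minus strand. The RefSeq promoters of the 3 genes (GRCm38.p6, 250 bases before to 50 after the start) are shown because the rule and the program described below turn on these genes, and capitals mark the 50 bases after the start.
Il23r, chr6:67491806-67492105, minus strand: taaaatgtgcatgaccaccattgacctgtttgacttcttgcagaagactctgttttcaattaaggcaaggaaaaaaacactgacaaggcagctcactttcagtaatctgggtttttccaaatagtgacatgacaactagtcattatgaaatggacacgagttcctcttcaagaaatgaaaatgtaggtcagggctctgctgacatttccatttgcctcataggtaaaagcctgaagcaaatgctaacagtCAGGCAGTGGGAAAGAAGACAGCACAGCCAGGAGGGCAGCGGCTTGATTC
Cd163l1, chr7:140218017-140218316, plus strand: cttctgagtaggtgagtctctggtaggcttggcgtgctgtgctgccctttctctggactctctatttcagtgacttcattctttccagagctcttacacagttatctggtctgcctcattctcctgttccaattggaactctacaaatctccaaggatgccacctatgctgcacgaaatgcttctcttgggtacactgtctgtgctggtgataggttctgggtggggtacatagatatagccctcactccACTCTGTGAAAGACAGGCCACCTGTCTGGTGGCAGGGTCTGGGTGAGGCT
Cxcr6, chr9:123806227-123806526, plus strand: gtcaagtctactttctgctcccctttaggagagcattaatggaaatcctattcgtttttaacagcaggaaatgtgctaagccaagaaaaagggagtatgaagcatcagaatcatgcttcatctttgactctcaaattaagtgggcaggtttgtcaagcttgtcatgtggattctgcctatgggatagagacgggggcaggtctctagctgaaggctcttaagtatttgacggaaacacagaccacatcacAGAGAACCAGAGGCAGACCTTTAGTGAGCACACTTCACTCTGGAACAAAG
The promoters of Blk and S1pr1 were not used here.

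The members held a median of 4 UMIs of Cxcr6 and Cd163l1 together, with at most 21. Just inside the limit, 172 cells had exactly 1 such UMI and 590 had more, and 42 members had exactly 2 CD3 UMIs. Just outside it, 73 cells with Cxcr6 or Cd163l1 had 1 CD3 UMI, and 225 T cells with either gene were left out for Cd79a or Csf1r. Free RNA in droplets can give single UMIs, and 39.3% of T cells had a UMI of either gene, against 1.44% of fibroblast-gated cells, 1.27% of endothelial-gated cells, 1.81% of smooth muscle-gated cells, 1.05% of B-gated cells and 1.44% of macrophage-gated cells. Median depth was 3433 UMIs in the members and 3371 in other T cells, and 4988, 4406, 7060, 2775.5 and 3954 UMIs in those 5 gates in the same order.

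The rule itself asks for CD3 transcripts, so the level of Cd3g, a CD3 gene, is a description and no check of the T cell label. It stood between 1108 and 2028 UMIs per 1000000 UMIs of the class (CPM) over the 6 samples in the members and between 299 and 722 CPM in other T cells. Il7r, which is not in the rule, encodes the interleukin 7 receptor and had been named as a marker of these cells with results of these data known. It was seen with at least 1 UMI in 85.1% of Cd163l1 T cells, 51.3% of Cxcr6-only T cells and 33.2% of other T cells. It was present in 1.13% of fibroblast-gated cells. The genes of the T cell receptor chains themselves were not analysed here, so gamma delta and alpha beta T cells could not be told apart by their receptors.

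Depth and sample differences were as follows. The 6 samples held 41388034 to 83886418 UMIs in all, and the members held 313307 to 728942 UMIs per sample. Barcodes of every sample carried 1 of 2 suffixes, taken here as 2 wells, and pairs of the 12 wells shared 1 to 124 cell barcodes (at most 1.58% of the smaller well), none of them repeated among the members. A doublet score above 0.25 was given to 2.32% of all cells, to 15 members and to 27 other T cells. B-gated cells made up 4.75%, 0.968% and 1.71% of cells in the high-fat diet samples and 0.611%, 16.8% and 31.8% in the control samples, and other T cells numbered 112, 48 and 71 in high-fat diet samples and 50, 662 and 234 in controls.

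Members numbered 138, 167 and 92 in the 3 high-fat diet samples and 68, 166 and 131 in the 3 control samples. As a share of T cells they made up 55.2% (95% Wilson interval 49.0 to 61.2), 77.7% (71.7 to 82.7) and 56.4% (48.8 to 63.8) in high-fat diet samples, against 57.6% (48.6 to 66.2), 20.05% (17.5 to 22.9) and 35.9% (31.1 to 40.9) in controls. These intervals cover counting error only. The diets overlapped through control 1, and the means of 63.1% ± 12.6 and 37.9% ± 18.9 (SD, n = 3 each, high-fat diet and control) differed by 25.3 percentage points (two-sided exact permutation test, p = 0.3). With 3 samples against 3 this test cannot give a p below 0.1. The low share of control 2 was seen in 1 of its wells, in which 59 of 633 T cells were members, whereas 107 of 195 were in the other. As a share of all cells, members made up 1.33%, 2.10% and 0.957% in high-fat diet samples and 1.04%, 1.00% and 1.57% in controls, a difference of 0.258 percentage points (exact permutation p = 0.7) that changed sign to -0.0604 without high-fat diet 2.

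Cd163l1 T cells took a larger part of the members in every high-fat diet sample than in any control. They were 68.8% (60.7 to 76.0), 63.5% (55.9 to 70.4) and 53.3% (43.1 to 63.1) of the members in high-fat diet samples, against 42.6% (31.6 to 54.5), 36.1% (29.2 to 43.7) and 22.1% (15.9 to 30.0) in controls. The difference of 28.2 percentage points had an exact permutation p of 0.1, the smallest this design allows. It was 46.2 points in the first wells (exact permutation p = 0.1), where control 3 had only 12 members, 16.8 points in the second wells, where the diets overlapped (exact permutation p = 0.5), and 12.8 points (exact permutation p = 0.1) when every cell was thinned to 1000 UMIs before the rule was applied. Against all T cells, Cd163l1 T cells made up 38.0%, 49.3% and 30.1% in high-fat diet samples and 24.6%, 7.25% and 7.95% in controls (difference 25.9 points, exact permutation p = 0.1). This share did not overlap in the first wells, where the nearest samples had 37 of 145 (high-fat diet 1) and 11 of 77 (control 1). It did overlap in the second wells, with 21 of 84 in high-fat diet 3 and 18 of 41 in control 1. Against all cells, Cd163l1 T cells made up 0.915%, 1.33% and 0.510% in high-fat diet samples and 0.443%, 0.362% and 0.348% in controls (difference 0.535 points, exact permutation p = 0.1), with no overlap when wells were joined. The shares of Cd163l1 T cells among all T cells and among all cells were not planned comparisons. They have the same numerator as the share among members, so the 3 results are not independent. Over the 5 share comparisons the Benjamini-Hochberg adjusted p was 0.167 for the 3 shares of Cd163l1 T cells, which were higher in 3 of 3 high-fat diet samples than in any control. The part of the unequal cell makeup of the samples in these shares was not tested.

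**Figure D1:**
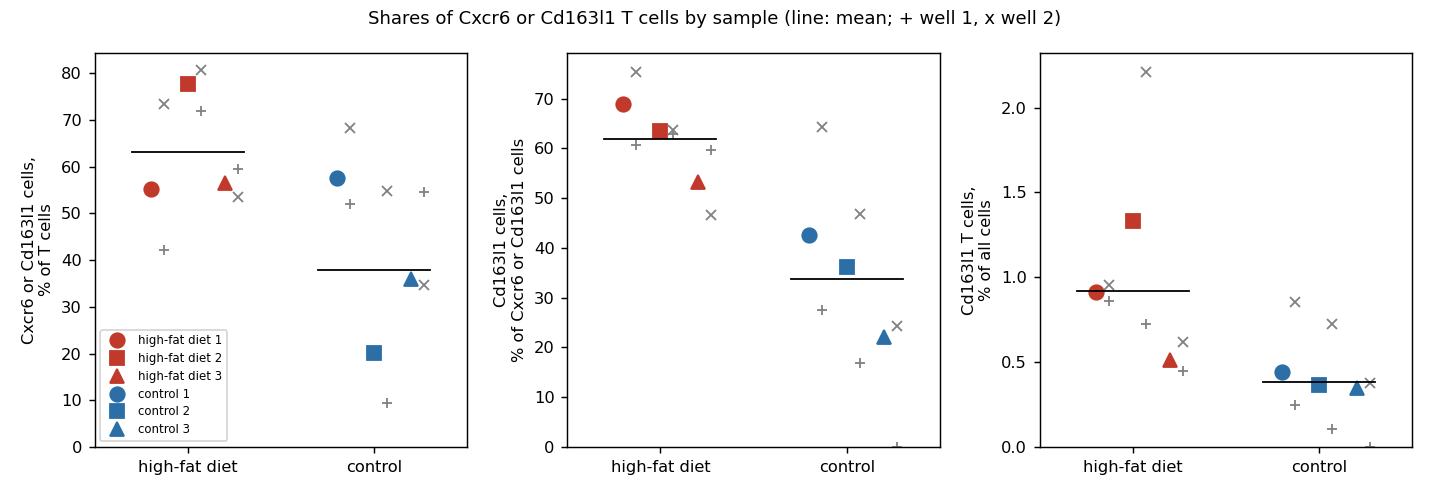
Shares of cells per sample (percent of the cells named on each vertical axis) with high-fat diet left and control right. Coloured points are samples, black lines the mean of 3, and grey plus and cross signs the first and second well of each sample. The middle and right panels show no overlap between diets when wells are joined (Cd163l1 T cells 53.3% to 68.8% of members in high-fat diet samples against 22.1% to 42.6% in controls). In the middle panel the diets do not overlap in the first wells either and do overlap in the second wells.

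The members differed from other T cells by type 17 genes that rose and by genes of recirculation that fell. For each sample, the raw counts of a class were added up, and these totals were compared within samples by the edgeR quasi-likelihood test with Benjamini-Hochberg adjustment at 0.05. The 7 genes of the rule were left out. Of 7275 genes tested, 515 were higher in the members (7.08%) and 745 were lower (10.2%). Of 28 listed type 17 genes, 23 passed the filter on low counts and all 23 were higher. Their median log2 fold change was 2.91, beside -0.03 over all tested genes. The filter itself favours genes that are high in 1 class. This list and the others below were chosen with earlier results of these data known, so their counts are descriptions.

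Il23r, a receptor subunit for the cytokine that sustains type 17 cells, had 7.86 to 77.8 CPM in the members (median 68.8) and 0 to 4.07 CPM in other T cells (median 1.52). In all, 147 UMIs of Il23r were found in members and 3 in other T cells, a ratio of 79.6 per UMI sequenced (95% counting interval 26.7 to 390). Blk, a kinase better known from B cells, ranged from 102 to 294 CPM in the members and from 0 to 12.2 CPM in other T cells. It rose by 4.57 ± 0.26 log2 units (SE, adjusted p = 3.6e-11, edgeR). Of 5 tested B cell markers none was higher in the members and 1 was lower (median -0.21).

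Transcription factors of the program also rose: Sox13 by 3.43 log2 units, Maf by 1.71 and Rora by 1.48. Receptors rose widely, with 11 of 19 tested cytokine receptors higher and 1 lower (median 1.00). Il17re, a receptor subunit for interleukin 17C, had 49.1 to 120 CPM in the members and 0.775 to 6.10 CPM in other T cells, a change of 4.83 ± 0.31 log2 units (adjusted p = 3.3e-10, edgeR). Il18r1 rose by 2.28, Il12rb1 by 2.39, Il1r1 by 1.96 and Ifngr1 by 1.86 log2 units, and each of these binds an inflammatory cytokine. The exception was Il6st, the shared signalling chain of the interleukin 6 family, which fell by 1.03. Among chemokine receptors and integrins, 6 of 13 rose and 2 fell: Ccr2, which answers to monocyte chemoattractants, had 279 to 415 CPM in the members and 30.2 to 159 CPM in other T cells (log2 change 2.18), Ccr6 rose by 2.26, and Ccr7, the lymph node homing receptor, fell by 2.46.

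Most of the largest increases lay outside the type 17 list. Kcnk1, which is on it and encodes a potassium channel, had 51.1 to 152 CPM in the members against 0 to 6.71 CPM in other T cells, and rose by 6.09 ± 0.40 log2 units (adjusted p = 5.4e-10, edgeR). Tdrd9, a helicase known from germ cell piRNA biology, had 73 UMIs in the members and none in other T cells, which makes it at least 39.5-fold higher with a floor of 3 counts over the class. Ffar2, a receptor for short-chain fatty acids, rose by 5.18 log2 units, Pram1 by 5.03, Ly6g5b by 4.82, Cryba4, a crystallin, by 4.56, Fam83a by 4.30 and Slc6a13, a GABA transporter, by 4.04. Lingo4 had 75 UMIs in the members and 3 in other T cells (ratio 40.6, counting interval 13.4 to 201). Each of these was higher in the members of all 6 samples, which was a condition for being named. Of all tested genes, 18.7% had the same direction in all 6.

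Cytokines themselves were sparse. Il17a had 5 UMIs in 5 members, all Cd163l1 T cells (1.36% of 368), and none in 1177 other T cells, which allows a share of up to 0.255% of cells with a UMI and sets no limit on cells that express the gene. Il17f had 1 UMI in the members and 7 in other T cells. Both were too low to test, so production of interleukin 17 was not detectable as a difference at this depth. Of 22 listed secreted and membrane ligands, 11 were tested and 5 were higher: Tnfsf11, which encodes RANKL, by 2.95 log2 units, Tnfsf14 (LIGHT) by 2.24, Tnf by 1.99, Furin, a protease, by 0.85 and Tgfb1 by 0.54. Of 17 tested genes of the unfolded protein response, 9 were higher and none was lower (median 0.48), among them the chaperone cofactor Sdf2l1 (1.36), the disulfide isomerase Pdia4 (0.92) and Manf (0.77). Of 12 tested residency genes, 4 were higher: Pdcd1, which encodes PD-1, by 1.86 log2 units, P2rx7 by 1.73, Ahr by 1.27 and Runx3 by 0.71. Nr4a1 was lower by 0.92, and Cd69, Itga1 and Rgs1 did not pass the test.

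Genes of naive and recirculating T cells were lower as a group, with 13 of 17 tested genes lower and 1 higher (median -1.27). Klf2 ranged from 95.8 to 395 CPM in the members (median 175) and from 287 to 587 CPM in other T cells (median 445). The ranges overlapped between samples, but within every sample the members were lower, and the log2 fold change was -1.19 ± 0.16 (adjusted p = 2.6e-05, edgeR). S1pr1, the exit receptor downstream of KLF2, had 12.8 to 98.2 CPM in the members and 33.6 to 224 CPM in other T cells (log2 change -1.79). Dapl1 fell by 2.83 log2 units, Slamf6 by 2.50, Il6ra by 2.29 and Lef1, a transcription factor of naive T cells, by 1.86. The exception was Itgb7, an integrin chain, which rose by 1.17. Sox4 had the largest fall under the naming rule, 2.93 log2 units.

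Several of the most lowered genes are known mainly from other cells. Plac9b, Pgm5, Hp, Plvap, Ctgf and Adamts5 fell by 2.17 to 2.39 log2 units, and all 8 fibroblast markers (median -1.12), 6 of 8 smooth muscle markers and 3 of 7 endothelial markers were lower in the members. Decorin (Dcn) had 314 to 970 CPM in the members and 587 to 3776 CPM in other T cells. Over 3% of UMIs came from 16 stromal genes in 9 members and in 76 other T cells. The 76 had a median of 7694.5 UMIs and of 2 CD3 UMIs, the least the rule allows. Of them, 19 were among the 50 other T cells of control 1. An alternative added after the data were seen left out the 9 members and 76 other T cells. It called 726 of 6567 genes (11.1%, 368 higher and 358 lower, 605 of them shared with the first test). All 23 type 17 genes were higher (median 2.63), and 15 of 17 recirculation genes were lower and 1 higher (median -1.40). Fibroblast markers then had 3 of 8 calls and a median of -0.46, and smooth muscle markers 2 of 8 and -0.42. Endothelial markers still had 3 of 7 calls, with a median of -1.18 beside -1.01 with all cells. The part of stromal RNA in the remaining falls was not tested. The 12 genes of the T cell signalling core changed with this setting: 6 were higher and none lower with all cells, and 1 was higher and 3 lower without those cells.

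**Figure D2:**
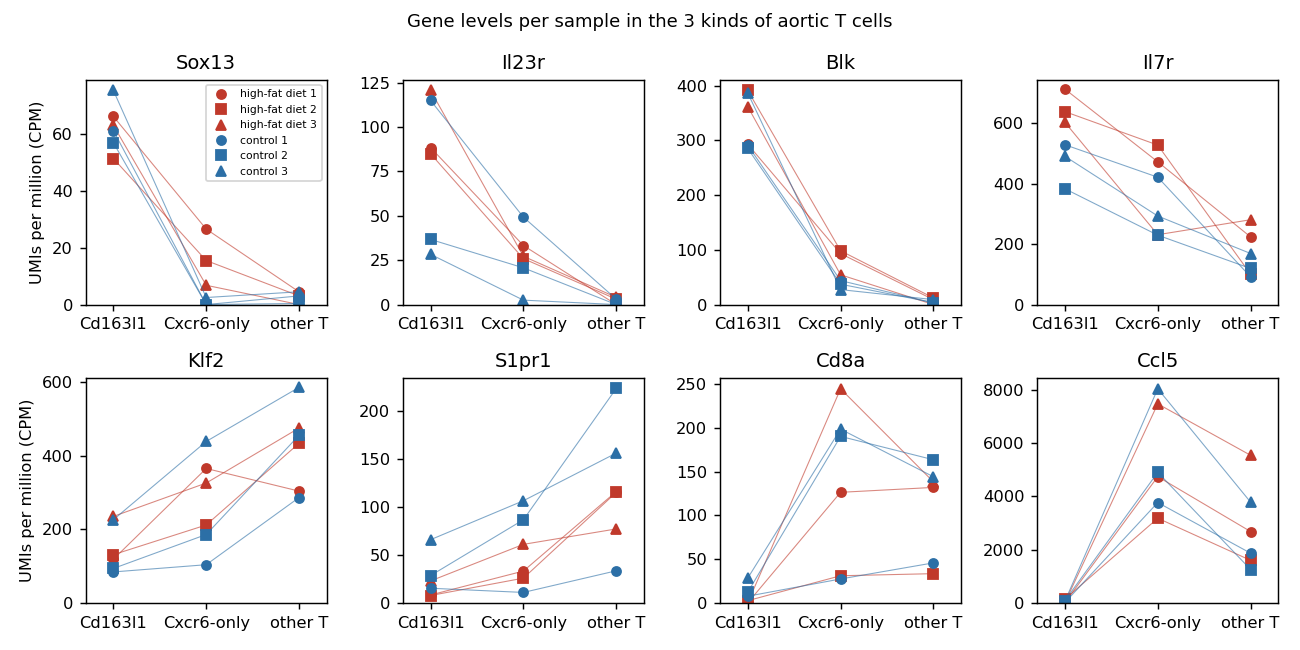
Level of 8 genes (CPM, linear axes from 0) in Cd163l1, Cxcr6-only and other T cells. Each point is 1 sample, coloured by diet (red high-fat diet, blue control), and lines join the classes of a sample; Blk stands at 285 to 391 CPM in Cd163l1 T cells of all samples and at 0 to 12.2 CPM in other T cells, while Cd8a and Ccl5 are low in Cd163l1 T cells.

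The members were not uniform. Il23r or Blk was seen in 273 of 368 Cd163l1 T cells (74.2%), in 69 of 394 Cxcr6-only T cells (17.5%) and in 22 of 1177 other T cells (1.87%). The coreceptor genes Cd8a or Cd8b1 were seen in 7 of 368 (1.90%), 129 of 394 (32.7%) and 466 of 1177 (39.6%) of these classes in the same order. Cd4 was seen in 0 of 368 Cd163l1 T cells, which allows a share of up to 0.815% of cells with a UMI but limits no share of expressing cells, since it was seen in only 42 of 394 Cxcr6-only T cells (10.7%) and 169 of 1177 other T cells (14.4%). In fibroblast-gated cells, Il23r was seen in 0.0491%, Blk in 0.896%, Cd8a in 0.442% and Cd4 in 0.196%. Median depths were close, at 3467 UMIs in Cd163l1 T cells and 3383 in Cxcr6-only T cells, so the shares were set side by side without thinning.

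Cd163l1 T cells were then compared with Cxcr6-only T cells within samples by the same edgeR test. Of 3625 genes tested, 222 were higher in Cd163l1 T cells (6.12%) and 239 were lower (6.59%). Type 17 genes were higher in 19 of 22 cases and lower in none (median 1.41, all tested genes -0.02), while Lmo4, Pxdc1 and Cd44 did not pass. Blk had 285 to 391 CPM in Cd163l1 T cells and 27.3 to 98.3 CPM in Cxcr6-only T cells (log2 change 2.53 ± 0.19, adjusted p = 3.0e-13, edgeR). Sox13, a factor needed for the gamma delta type 17 lineage in mice, had 51.5 to 75.5 CPM in Cd163l1 T cells and 0 to 26.6 CPM in Cxcr6-only T cells (log2 change 3.09 ± 0.52, adjusted p = 1.6e-05, edgeR). Neither gene overlapped between the classes. Kcnk1 rose by 2.66 log2 units, Il7r by 0.57 and Tnfsf11 by 1.77.

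Genes of secreted peptides separated the classes too. Bmp4, a bone morphogenetic protein, had 92 UMIs in Cd163l1 T cells and 3 in Cxcr6-only T cells (ratio 34.0, 95% counting interval 11.3 to 168). Rln3, a relaxin family peptide, had 139 to 275 CPM in Cd163l1 T cells and 0 to 81.5 CPM in Cxcr6-only T cells, a change of 2.87 ± 0.50 log2 units (adjusted p = 0.011, edgeR). Tns4, an adhesion protein, rose by 2.95 log2 units, Cryba4 by 2.76, Auts2 by 2.58, Pram1 by 2.40, Clnk, a signalling adaptor, by 2.37 and Lrrc25 by 2.26. Tdrd9 had 71 UMIs in Cd163l1 T cells and 2 in Cxcr6-only T cells (ratio 39.4, interval 10.5 to 331).

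Of 22 listed cytotoxic and type 1 genes, 13 passed the filter on low counts. Of these, 11 were lower in Cd163l1 T cells (median -4.48, also with 3 genes at their bound). Those 3 genes had no UMI in Cd163l1 T cells. They passed the filter only through Cxcr6-only T cells, so their direction was fixed in advance. Ccl5, a chemokine of effector T cells and natural killer cells, had 11.5 to 139 CPM in Cd163l1 T cells and 3181 to 8042 CPM in Cxcr6-only T cells (log2 change -6.36 ± 0.52, adjusted p = 0.00086, edgeR). Xcl1 had no UMI in Cd163l1 T cells and 444 in Cxcr6-only T cells, at least 133-fold lower, and granzyme B (Gzmb) had none and 226, at least 67.9-fold lower. Cd40lg, the ligand with which helper T cells activate other cells, had none in Cd163l1 T cells (at least 30.4-fold lower), and Gzmk none and 80 (at least 24.0-fold lower). Nkg7, a granule protein, had 0 to 40.8 CPM in Cd163l1 T cells and 771 to 1638 CPM in Cxcr6-only T cells (log2 change -5.98). Klre1, a natural killer receptor gene, fell by 5.36 log2 units. Klrg1 and Cd244, 2 more receptors of such cells, Sh2d1a, a signalling adaptor, and Il1rl1, the interleukin 33 receptor, had 1 UMI each in Cd163l1 T cells, against 85, 37, 123 and 42 in Cxcr6-only T cells. The ratio for Sh2d1a was 0.00902 (interval 0.000226 to 0.0512), and Ccl4 had 3 UMIs in Cd163l1 T cells and 152 in Cxcr6-only T cells (ratio 0.0219).

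All 6 tested coreceptor and costimulation genes were lower in Cd163l1 T cells (median -3.45), among them Cd8a (-4.32), Cd28 (-4.53), Cd27 (-2.67) and Cd5 (-2.14), a negative regulator of receptor signals. The signalling core split: Cd247, the zeta chain, rose by 1.45 and Lat by 0.60 log2 units, whereas Lck, the kinase bound to CD4 and CD8, fell to 0 to 24.5 CPM in Cd163l1 T cells, against 263 to 377 CPM in Cxcr6-only T cells (log2 change -4.79). Cd2, Skap1, Prkcq, Fyn and Thy1 were lower too. Of 13 recirculation genes 7 were lower and 1 was higher, including Klf2 (-0.97) and S1pr1 (-1.35), and of 14 unfolded protein response genes 7 were higher and none was lower (median 0.62). Klf2 changed direction, to 0.26, when cells were thinned to 1000 UMIs before they were sorted into classes. Markers of fibroblasts and smooth muscle, 7 and 8 genes tested, had no call in either direction between these classes, nor had the 2 endothelial and 4 erythroid markers. Of 10 listed markers of NK cells and innate lymphoid cells, 3 passed the filter, which favours genes that are high in 1 class. All 3 were lower in Cd163l1 T cells (median -4.93): Klre1, Gzma and Il1rl1, the first 2 of which are also on the cytotoxic list. The part of such cells in the cytotoxic difference was not tested. Of 5 B cell markers Cd79b was higher (1.05 log2 units), and of 7 macrophage markers Tyrobp was lower (-0.67).

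**Figure D3:**
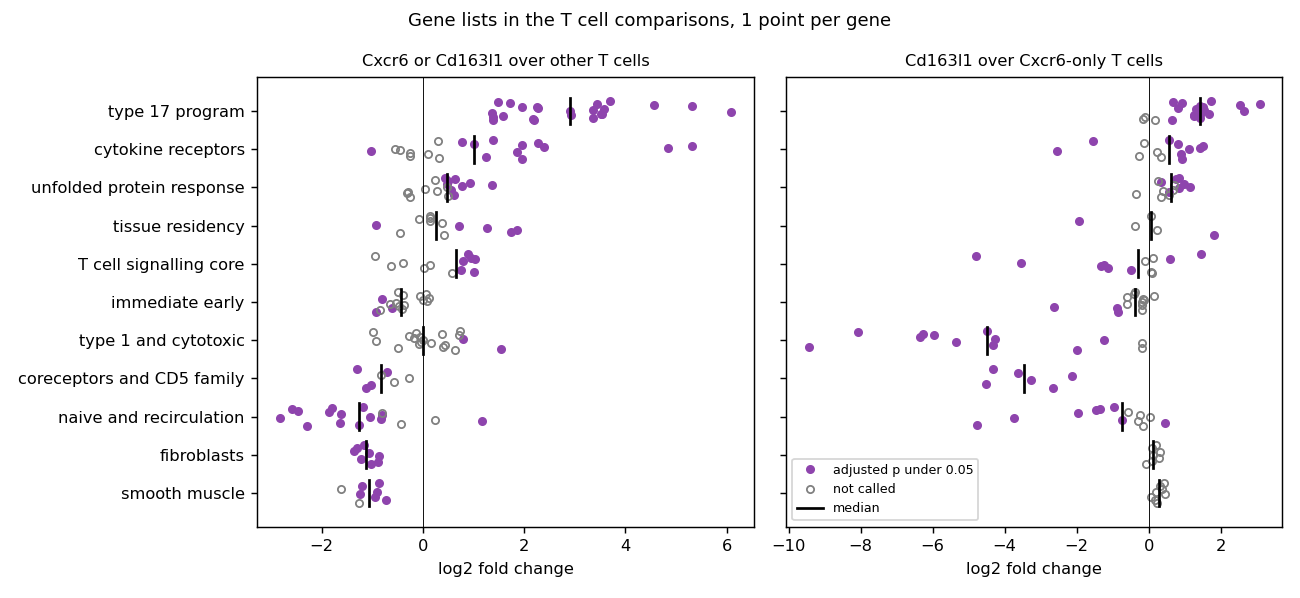
Log2 fold changes of the genes of 11 lists in members against other T cells (left) and in Cd163l1 against Cxcr6-only T cells (right). Each point is 1 gene (filled where the adjusted p was under 0.05), black bars are list medians, and values below about -6 include genes with no UMI in Cd163l1 T cells, whose fitted change is no bound; all 23 type 17 genes lie right of 0 on the left, and 13 cytotoxic genes lie left of 0 on the right.

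The diet comparison asked whether the members themselves changed their transcripts. Of 5611 genes tested, 16 were called (0.285%), 8 higher (0.143%) and 8 lower in high-fat diet samples, by the edgeR test over 3 samples against 3. At an unadjusted p under 0.05 there were 531 genes (9.46%). Among type 17 genes 22 of 23 had a positive change (median 0.46, all tested genes -0.0020) but none was called, and Il7r (0.52 ± 0.18, adjusted p = 0.37) stayed short of the threshold. The mix of Cd163l1 and Cxcr6-only T cells differed between the diets as given above. Taken by kind, the type 17 genes had a median of 0.10 in Cd163l1 T cells alone (15 of 22 positive). In Cxcr6-only T cells alone the median was 0.27 (13 of 16 positive), and none was called in either kind. In other T cells 8 of 10 were positive (median 0.64), also without a call. Cxcr6-only T cells were themselves mixed. Il23r or Blk was seen in 27.9%, 24.6% and 14.0% of them in high-fat diet samples and in 28.2%, 15.1% and 8.82% in controls. The part of that mix in the median of 0.27 was not tested.

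Cebpb, a transcription factor of inflammatory and metabolic responses, had 74.2, 56.7 and 56.0 CPM in members of high-fat diet samples and 3.19, 1.37 and 9.82 CPM in members of controls. All 3 high-fat diet samples stood above all controls, but absence of overlap was a condition for naming a diet gene. The diets did not overlap in 15.0% of tested genes. The log2 change of Cebpb was 3.54 ± 0.47 (adjusted p = 0.0088, edgeR). Alyref, an mRNA export factor, had 144, 153 and 109 CPM in high-fat diet samples and 15.96, 20.6 and 41.3 CPM in controls (log2 change 2.18 ± 0.31, adjusted p = 0.0091, edgeR). Camk2n1, an inhibitor of the kinase CaMKII, had 152, 139 and 115 CPM in high-fat diet samples and 28.7, 30.2 and 39.3 CPM in controls (log2 change 1.87 ± 0.24, adjusted p = 0.0088, edgeR).

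The same direction was seen in other cells. Cebpb stood at 195 to 290 CPM in macrophage-gated cells of high-fat diet samples against 23.3 to 42.5 CPM in controls, and in smooth muscle-gated cells at 92.1 to 145 CPM in high-fat diet samples against 11.8 to 20.03 CPM in controls. Alyref stood at 86.8 to 115 CPM in macrophage-gated cells of high-fat diet samples and at 21.9 to 41.2 CPM in those of controls. In other T cells Cebpb had 89.5, 140 and 28.5 CPM in high-fat diet samples and 15.3, 8.14 and 10.1 CPM in controls, a change of 2.75 ± 0.52 that was not called (adjusted p = 0.72, edgeR). The part of free RNA from those cells in the members' values was not tested.

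Akirin2, a nuclear cofactor, rose by 1.79 log2 units, Large, a glycosyltransferase, by 1.97 and Tmem64 by 1.29. Rln3 had 187, 193 and 143 CPM in high-fat diet samples and 89.4, 46.6 and 49.1 CPM in controls (log2 change 1.42 ± 0.22, adjusted p = 0.020, edgeR). Within Cd163l1 T cells alone, Rln3 had 257, 275 and 195 CPM in high-fat diet samples and 153, 139 and 170 CPM in controls, without overlap, but its change of 0.60 ± 0.23 was not called (adjusted p = 0.54, edgeR). The eighth higher gene was the gene model Gm13889, which the naming rule leaves out and which is named here after its values were seen.

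Of the 8 lower genes, 3 encode chains or helpers of class II antigen presentation. H2-Ab1 had 242, 272 and 187 CPM in members of high-fat diet samples and 482, 661 and 747 CPM in members of controls (log2 change -1.60 ± 0.23, adjusted p = 0.0091, edgeR). H2-Eb1 fell by 1.36 and H2-DMa by 1.75 log2 units. H2-Ab1 was also seen in fibroblast-gated cells, at 222, 179 and 171 CPM in high-fat diet samples and 371, 186 and 433 CPM in controls, and in B-gated cells at 1997 to 2537 CPM in high-fat diet samples and 1456 to 3956 CPM in controls. The 8 B cell markers together stood at 853, 849 and 759 CPM in members of high-fat diet samples and at 1181, 2471 and 2598 CPM in members of controls, without overlap. Of these, 4 were tested and none was called (median -1.18), and the sum is mostly Cd74 (log2 change -1.62) and H2-Aa (-1.71), which are class II genes themselves. Ms4a1, a B cell gene that is not of class II, had 1.95, 0 and 0 CPM in members of high-fat diet samples and 0, 4.12 and 17.7 CPM in members of controls. B-gated cells were fewest in high-fat diet 2 and control 1, and the part of B cells and their RNA in these values was not tested. Gzmk and Klrc1, both genes of cytotoxic cells, fell by 2.49 and 2.43 log2 units. Gzmk had no UMI in any Cd163l1 T cell, and in Cxcr6-only T cells it had 13.3, 25.9 and 34.0 CPM in high-fat diet samples and 76.6, 72.4 and 47.2 CPM in controls. Rbm3, a cold-inducible RNA-binding protein, had 277, 172 and 321 CPM in high-fat diet samples and 622, 674 and 945 CPM in controls (log2 change -1.70 ± 0.28, adjusted p = 0.045, edgeR). It stood lower in high-fat diet samples in macrophage-gated cells as well, at 119 to 164 CPM in high-fat diet samples against 283 to 505 CPM in controls. Plac8 and Hnrnpa1 fell by 1.69 and 1.02 log2 units.

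The number of diet calls rested on single samples. Without control 1 it was 376, and without high-fat diet 2 it was 2. It was 9, 9, 4 and 5 without control 2, control 3, high-fat diet 1 and high-fat diet 3. In Cd163l1 T cells alone, without the Cxcr6-only T cells, 9 of 2812 genes were called (0.32%), 7 of them among the 16. Of these 7, Cebpb, Alyref, Large and Camk2n1 were higher and H2-Ab1, H2-Eb1 and Rbm3 lower. The other 2 were Cd74 (-1.30) and H2-Aa (-1.44), both lower. In Cxcr6-only T cells alone none of 2506 was called by edgeR, with 219 (8.74%) at an unadjusted p under 0.05. Cebpb had no UMI in Cd163l1 T cells of any control sample and 66.3, 61.8 and 74.6 CPM in those of high-fat diet samples.

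**Figure D4:**
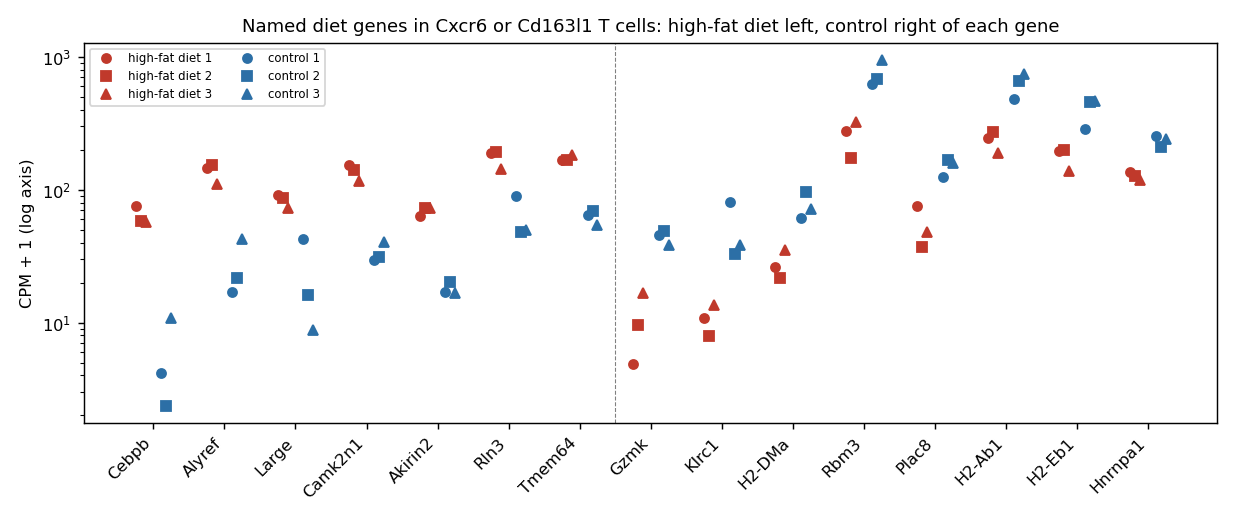
Level (CPM + 1, log axis) of the 15 named diet genes in the members. For each gene the 3 high-fat diet samples are left (red) and the 3 control samples right (blue). Left of the dashed line genes were higher with high-fat diet, right of it lower. No gene overlaps between diets because the naming rule took only genes without overlap.

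Klf2 in the members had 191, 158 and 277 CPM in high-fat diet samples and 95.8, 155 and 395 CPM in controls. The diets overlapped (log2 change -0.25 ± 0.63, adjusted p = 0.93, edgeR), and the direction turned to 0.51 without control 3. S1pr1 had 15.6, 13.8 and 40.5 CPM in high-fat diet samples and 12.8, 67.2 and 98.2 CPM in controls (log2 change -1.76 ± 0.77, adjusted p = 0.54, edgeR).

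In other T cells none of 4649 genes was called by edgeR, DESeq2 called 2 and 271 (5.83%) had an unadjusted p under 0.05. Other T cells numbered only 48 to 112 in high-fat diet samples, so the absence of calls does not show that diet changed these cells less than the members. The genes with the smallest p were Mafg, Kank3, Wrn, Cebpb and Hspa4l among those with a positive change (1.59 to 2.75) and Rcan2, Cirbp, H2-Eb1, H2-DMa and Chchd10 among those with a negative one (-1.94 to -1.38). A test of the difference between the diet effects in members and in other T cells called 3 of 7275 genes (0.0412%, with 4.71% at an unadjusted p under 0.05), all with a lower diet effect in the members. Ube2c, which acts in the exit from mitosis, had 31.2, 43.0 and 77.8 CPM in members of high-fat diet samples and 25.5, 160.5 and 104 CPM in members of controls. In other T cells it had 64.9, 122 and 65.1 CPM in high-fat diet samples and 6.10, 35.3 and 6.76 CPM in controls. The difference of the effects was -3.23 ± 0.50 log2 units (adjusted p = 0.028, edgeR). Cenpf, a centromere protein, and Marcksl1 had differences of -2.96 and -3.76. Of 16 tested cell cycle genes 1 was called and the median difference was -0.92, beside 0.03 over all tested genes. None of the 3 was called without control 3 or without high-fat diet 1, and 8 genes were called after thinning to 1000 UMIs, none of them among the 3. Without control 2 there were 5 calls, of which Ube2c alone was among the 3, and without high-fat diet 3 there were 5, the 3 among them. With at least 3 CD3 UMIs 6 genes were called, and again Ube2c alone was among the 3.

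Cxcl16, the ligand of CXCR6, was measured in the other cells of the same aortas as context. In macrophage-gated cells it had 103, 127 and 97.6 CPM in high-fat diet samples and 65.6, 109 and 93.0 CPM in controls. In fibroblast-gated cells Cxcl16 had 60.3, 49.5 and 41.8 CPM in high-fat diet samples and 42.2, 46.7 and 70.9 CPM in controls. The diets overlapped in both. Il7, the ligand of the interleukin 7 receptor, stood at 15.99 to 19.4 CPM in endothelial-gated cells of high-fat diet samples and at 15.7 to 34.7 CPM in those of controls, and at most 4.50 CPM in macrophage-, fibroblast-, smooth muscle- and B-gated cells. Il23a, a subunit of interleukin 23, had 6 UMIs in all 5 gates together.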

How the data were processed

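Aortic single cells were profiled with 10x 3′ chemistry, and UMI counts per gene and cell (27998 genes) were deposited by the authors, made with Cell Ranger 3.0 on mm10 per the submitters' processing notes. Free RNA removal was not given in the sources used here. Cells with at least 300 genes and under 20% mitochondrial UMIs were kept (59413 of 62838). Other cells were gated for comparison by UMIs of 1 gene (at least 2 of Cd79a for B cells or Csf1r for macrophages, without CD3 UMIs, and at least 2 of Pdgfra for fibroblasts or Cdh5 for endothelium or 5 of Myh11 for smooth muscle, without Ptprc). The members and gene lists were chosen with earlier results of these data known. CPM are UMIs per 1000000 UMIs of a class in a sample and are not corrected for gene length. They are levels, and folds come from the fit. Counts were summed per sample and class and tested with edgeR 4.0.16 (TMM, quasi-likelihood, filter on low counts, Benjamini-Hochberg at 0.05) in R 4.3.3, with the sample as a block between classes. Shares were compared with exact permutation tests (scipy 1.17.1). Doublets were scored per well (Scrublet, run through scanpy 1.11.5, at an assumed rate of 0.06). Scores above 0.25 led to no removal, except in 1 alternative. The tests were also run on simulated counts, whose outcome is not reported here.

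Named genes were, between classes, the 12 rising and 12 falling called genes of largest change with at least 20 CPM in the higher class and 1 direction in all samples. By diet they were up to 8 in each direction without overlap, or the 5 with the smallest p where fewer than 5 were called. Haemoglobin, immunoglobulin, sex-linked and unnamed gene models were left out. T cell receptor chain genes, Trdc among them, were not analysed here, and some genes the rule names are not reported here. Alternatives were DESeq2 1.42.0, no filter on low counts, thinning to 1000 UMIs, other cell limits, each sample left out and, added after the data were seen, single wells, stromal RNA and each kind of member alone. Gene positions are mm10.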

Additional observations from a re-analysis of the deposited data

Results flagged for a closer look

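In 3 genes the diet effect differed between Cxcr6 or Cd163l1 T cells and other T cells by the edgeR test of that difference (Benjamini-Hochberg adjusted, 3 samples a diet). The difference was -2.96 log2 units for Cenpf (adjusted p = 0.040), -3.23 for Ube2c (adjusted p = 0.028) and -3.76 for Marcksl1 (adjusted p = 0.040). Cenpf had 35.1, 41.2 and 34.2 CPM in members of high-fat diet samples and 19.1, 54.9 and 13.8 CPM in members of controls, against 42.5, 109 and 40.7 CPM and 0, 11.2 and 2.25 CPM in other T cells of high-fat diet and control samples. Marcksl1 had 9.76, 1.72 and 6.22 CPM in members of high-fat diet samples and 15.96, 57.6 and 19.6 CPM in members of controls. In other T cells it had 44.7, 72.9 and 36.6 CPM in high-fat diet samples and 24.4, 23.3 and 14.6 CPM in controls. The makeup of other T cells differed between samples as given above, and its part in these 3 differences was not tested.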

How the results depend on the processing

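Of the single genes named, 1401 gene and setting pairs kept their direction and side of the threshold, 130 lost the call, 14 gained it and 9 turned. Of the lost calls, 90 were in the diet test of the members. There 215 pairs kept their direction and side of the threshold, but those of Klf2, S1pr1 and Il7r had no call to lose. Between members and other T cells 8 were lost and 409 kept. The 199 kept pairs of the diet test in other T cells had no call to lose. By diet in members, H2-Eb1 lost its call in 12 of 18 settings, Rbm3 and Hnrnpa1 in 9 of 18, Large in 8 of 17 and Cebpb in 1 of 17. Calls between members and other T cells numbered 728 with at least 3 CD3 UMIs, 730 with DESeq2, 293 without the sample block, 726 with little stromal RNA, 286 after thinning and 364 and 484 in wells 1 and 2. Calls between Cd163l1 and Cxcr6-only T cells numbered 215 with DESeq2, 179 without the sample block, 46 after thinning and 77 and 187 in wells 1 and 2. Diet calls in members numbered 123 without the filter on low counts, 1 after thinning, 1 in either well, 9 in Cd163l1 and 0 in Cxcr6-only T cells alone, and 2 to 376 with each sample left out. In other T cells they numbered 2 with DESeq2, 2 without the filter, 1 after thinning and 0 to 1 with each sample left out. Differences of diet effects numbered 6 with at least 3 CD3 UMIs (1 of them among the 3 first called), 1 with DESeq2 (1 shared), 47 without the filter (3 shared), 5 with little stromal RNA (3 shared), 8 after thinning (0 shared), 0 in well 1 and 0 to 5 with each sample left out. The causes were not tested.

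The members' share of all cells turned to -0.0350 points in well 1 and -0.0604 without high-fat diet 2. Klf2 turned to 0.42 in members by diet in well 1, ranged from -0.63 to 0.51 (without control 3) with each sample left out, and turned to 0.40 in other T cells in well 2, and 0.26 between the kinds of member after thinning. Il7r in other T cells by diet ranged from -0.040 (without high-fat diet 3) to 0.69 with each sample left out. In differences of diet effects, Myl3 turned to -0.26, Tnnc2 to -0.25 and Klf2 to -0.55 in well 2, and Il7r ranged from -0.17 (without high-fat diet 2) to 0.77 with each sample left out.

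The main diet tests did not pair samples by replicate number. In members the correlations of same-numbered deviations from the diet means were 0.001, -0.064 and 0.084. In other T cells they were -0.007, -0.398 and 0.411. With 3 samples a diet such values cannot settle whether the numbers pair the samples. With the replicate block, 24 genes were called by diet in members (15 of them shared) and 0 in other T cells, and the share differences stayed 25.3, 0.258, 28.2, 25.9 and 0.535 points. A purity limit on other cell types' markers was not run because it left too few members per sample.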
